A study of Homo sapiens with 6 samples.

Results

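Pyruvate, the end product of glycolysis, stands at a branch point, and 10 genes that decide which way it goes were examined here: the lactate dehydrogenase subunits LDHA and LDHB, the monocarboxylate transporters SLC16A1 and SLC16A3 with their partner BSG, the mitochondrial pyruvate carrier subunits MPC1 and MPC2, and PDHA1, PDK1 and PDK3 of the pyruvate dehydrogenase step. The genes were picked by name for their roles, with earlier results of these data known. All 10 were found among the 28847 genes of the deposited table. Polyadenylated RNA had been sequenced from 3 libraries of cells labelled THP-1 and treated with recombinant human RBP4, which carries retinol in plasma, and from 3 libraries labelled THP-1 alone, the control. THP-1 is a human monocytic leukaemia line, and the series describes the cells as an unpolarized (M0) macrophage model. No dose, time or vehicle was given, and nothing in the labels says that the 3 libraries of a group came from separate cultures, so the p-values measure the spread between these libraries, which may be technical.

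In the cytosol, lactate dehydrogenase turns pyruvate into lactate and restores the NAD+ that glycolysis needs. The enzyme is a tetramer of A and B subunits, and the A subunit is the one that muscle and many tumours make in quantity. Lactate leaves the cell through MCT1 (SLC16A1) or MCT4 (SLC16A3), which reach the membrane with the help of the glycoprotein basigin (BSG). The remaining pyruvate enters mitochondria through a carrier built from MPC1 and MPC2 and is turned into acetyl-CoA by the pyruvate dehydrogenase complex, whose E1 alpha subunit (PDHA1) is switched off by phosphorylation from the PDK kinases. LDHA, SLC16A3 and PDK1 are textbook targets of hypoxia-inducible factors, whose sites share the core ACGTG or GCGTG, and LDHA is also a textbook target of MYC, which binds CACGTG.

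The promoters of the 3 genes that were lowered most are shown first, with that of LDHB, the sister gene of LDHA, for comparison. LDHA, PDK1 and SLC16A3 each have more than 1 window, and the one printed is the only one that holds ACGTG. The sequences are RefSeq windows of 300 bases on GRCh38.p14, from 250 bases before to 50 after an annotated transcription start, written 5′ to 3′ on the strand of the gene. Capitals mark ACGTG read on either strand, where CACGT is its reverse complement, and CACGTG holds the motif on both strands. LDHA lies at chr11:18394313-18394612 (plus strand), PDK1 at chr2:172555840-172556139 (plus strand), SLC16A3 at chr17:82228792-82229091 (plus strand) and LDHB at chr12:21657793-21658092 (minus strand).
LDHA: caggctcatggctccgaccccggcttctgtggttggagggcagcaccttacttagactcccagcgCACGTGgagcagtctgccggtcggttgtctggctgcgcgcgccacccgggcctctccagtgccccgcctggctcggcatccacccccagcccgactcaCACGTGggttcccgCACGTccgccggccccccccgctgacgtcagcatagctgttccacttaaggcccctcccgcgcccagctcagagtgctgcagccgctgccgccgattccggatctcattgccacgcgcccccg
PDK1: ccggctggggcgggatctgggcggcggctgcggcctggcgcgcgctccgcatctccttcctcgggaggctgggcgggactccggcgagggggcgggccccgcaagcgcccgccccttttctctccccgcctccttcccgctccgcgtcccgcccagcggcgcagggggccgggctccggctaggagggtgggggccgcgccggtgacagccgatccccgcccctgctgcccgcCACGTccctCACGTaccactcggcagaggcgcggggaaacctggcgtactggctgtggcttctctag
SLC16A3: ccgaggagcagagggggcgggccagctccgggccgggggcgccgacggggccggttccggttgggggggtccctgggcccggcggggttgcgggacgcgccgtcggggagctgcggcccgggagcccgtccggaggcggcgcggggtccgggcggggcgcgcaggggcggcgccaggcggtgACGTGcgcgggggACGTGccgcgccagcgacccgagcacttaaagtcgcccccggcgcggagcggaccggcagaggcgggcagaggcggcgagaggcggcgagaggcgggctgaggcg
LDHB: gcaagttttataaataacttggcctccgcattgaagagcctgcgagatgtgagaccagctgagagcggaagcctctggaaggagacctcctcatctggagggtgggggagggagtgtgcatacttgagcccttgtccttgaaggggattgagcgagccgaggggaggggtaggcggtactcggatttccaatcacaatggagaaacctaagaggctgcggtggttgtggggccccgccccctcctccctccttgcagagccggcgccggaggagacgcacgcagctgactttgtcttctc

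In the LDHA window the motif formed 3 separate stretches, of which 2 were CACGTG, beginning 185 and 87 bases before the start, and the other began 73 bases before it. The PDK1 window held 2 copies, 17 and 8 bases before the start, and the SLC16A3 window held 2 copies, 68 and 55 bases before the start. The LDHB window held no ACGTG but 1 GCGTG, 27 bases after the start. The printed LDHA window also held 1 GCGTG, 38 bases after the start. GCGTG was absent from both PDK1 windows and from the printed SLC16A3 window. RefSeq windows were matched for 9 of the 10 genes, 18 windows in all, and ACGTG was found in at least 1 window of 5 of the genes (LDHA, PDK1, SLC16A3, PDK3 and BSG). Of all 35116 windows of the same length, 21.4% held it, and of all 27305 genes with a window 24.9% had it in at least 1. CACGTG was found for 2 of the genes, LDHA and BSG, against 8.77% of all genes, and GCGTG for 8 of them, against 40.6%. These matches describe letters in a window and not bound sites, and several genes had more than 1 window. The 9 genes had 18 windows, and all 27305 genes had 35116, so the shares by gene do not compare like with like.

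**Figure D1:**
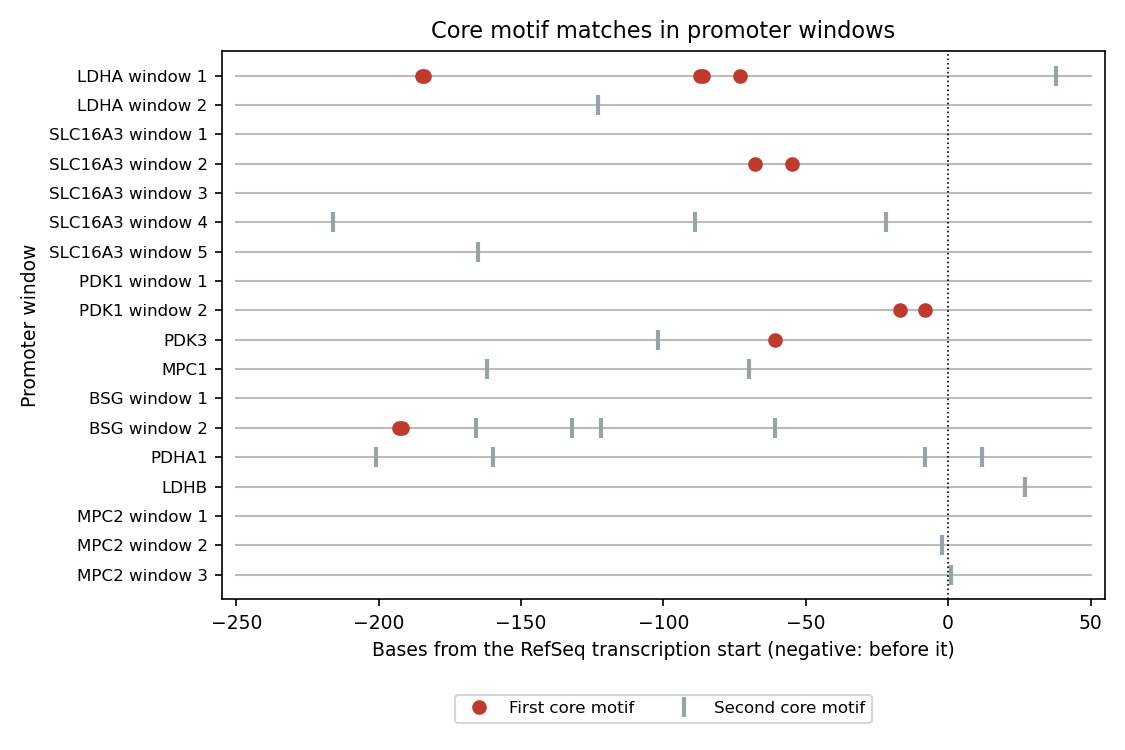
Positions of the core motifs in the 18 RefSeq promoter windows, 1 line per window; the x axis is the distance in bases from the transcription start, red circles mark the first core motif (the one capitalised in the printed promoters) on either strand and grey ticks the second. Genes run from the most lowered at the top; windows of a gene are numbered along the chromosome, and the first motif sits in 1 window each of LDHA, SLC16A3, PDK1, PDK3 and BSG.

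The libraries were alike in depth, with 15994483 to 16420517 reads in the RBP4 group and 15202000 to 16149118 reads in the control group, as recovered from the deposited values. Markers of the labelled cell type were partly present and partly at or near 0. Of 13 monocyte and macrophage markers, 12 had rows and 4 reached 10 CPM (reads scaled to the library total) in all 6 libraries, namely CD33, SPI1, FCGR2A and CTSS. FCGR2A averaged 102 ± 3.88 CPM in RBP4 and 105 ± 3.41 CPM in control libraries. In the same order, CD33 averaged 47.0 ± 2.69 and 52.7 ± 4.22 CPM, and SPI1 46.5 ± 2.22 and 39.2 ± 0.603 CPM. CTSS averaged 14.8 ± 1.07 CPM in RBP4 and 14.9 ± 1.22 CPM in control libraries. LYZ, the lysozyme gene, averaged 16.4 ± 1.196 CPM in RBP4 and 11.2 ± 1.64 CPM in control libraries, and ITGAM, an integrin gene of myeloid cells, 10.9 ± 1.58 CPM in RBP4 and 6.37 ± 0.693 CPM in control libraries (SD, n = 3 each). CSF1R, the receptor that macrophages need to survive, averaged 0.143 ± 0.0698 CPM in RBP4 and 0.129 ± 0.0677 CPM in control libraries (SD, n = 3 each). CD14, the monocyte co-receptor for lipopolysaccharide, was at 0 in all 3 RBP4 libraries and averaged 0.0858 ± 0.0397 CPM in control libraries. CD68 averaged 0.0821 ± 0.0353 CPM in RBP4 and 0.0213 ± 0.0368 CPM in control libraries, and MRC1 and CD163 were at or near 0 in both groups. The 13 erythroid markers summed to between 1526 and 1552 CPM in RBP4 and between 1405 and 1431 CPM in control libraries, and 12 of them reached 10 CPM in all 6 libraries. Their median ran the other way, between 48.2 and 58.8 CPM in RBP4 and between 83.7 and 84.7 CPM in control libraries. RHAG, which had the highest level of the list, averaged 552 ± 11.2 CPM in RBP4 and 470 ± 3.17 CPM in control libraries. GATA1, the next highest, averaged 209 ± 1.72 CPM in RBP4 and 195 ± 5.51 CPM in control libraries. The monocyte and macrophage list summed to between 234 and 245 CPM in RBP4 and between 228 and 233 CPM in control libraries. In both groups the erythroid sum thus stood far above that of the labelled cell type. Whether the cells match their label was not tested. Mitochondrially encoded genes took 7.58% to 7.69% of the reads in RBP4 and 5.90% to 6.10% in control libraries. Both sums and this share moved with the group, and their part in the results below was not tested.

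The question put to the 10 genes was whether RNA for making and exporting lactate, and RNA for taking pyruvate into mitochondria, differed with RBP4. Of the 10 genes, 7 were lowered, 1 was raised and 2 did not pass the test (limma's moderated test on log2 of normalized reads + 1, Benjamini-Hochberg adjusted over all 15676 genes tested, threshold 0.05). All 10 passed the filter on low values, with at least 10 normalized reads in each of the 6 libraries. Differences were widespread in these libraries: 50.6% of all genes tested passed, 26.1% lowered and 24.5% raised. Raised genes made up 48.4% of the calls, and 61.7% with libraries scaled to total reads, where each of the 10 genes kept its direction. Among genes averaging at least 100 normalized reads 34.8% were lowered. At least a 2-fold fall was found for 3 of the 10 genes (LDHA, SLC16A3 and PDK1), where 1.45% of all genes tested fell that far. The median log2 fold change of the 10 was -0.24, and that of all genes tested -0.0021. For 8 of the 10 genes all RBP4 values lay on one side of all control values, where 56.2% of all genes tested were separated in this way. In these bulk libraries, fewer cells of a kind and less RNA per cell cannot be told apart.

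**Figure D2:**
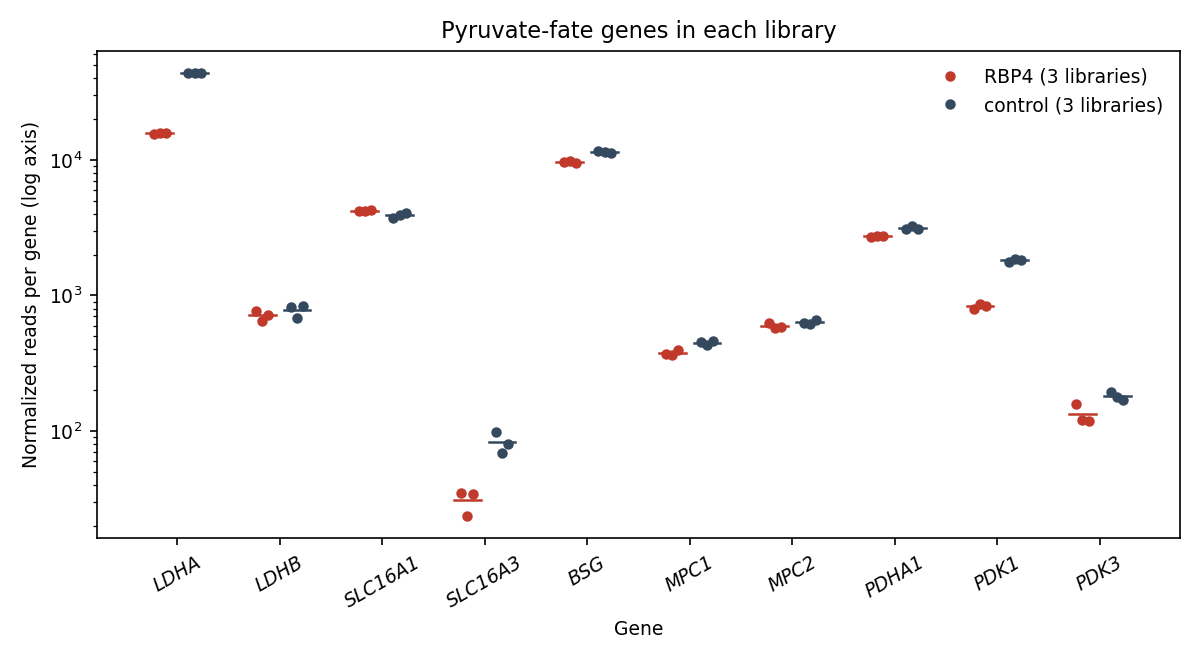
Normalized reads of each gene (log axis) in the 3 RBP4 libraries (red, left) and the 3 control libraries (dark, right), 1 point per library with a bar at the mean. LDHA, SLC16A3 and PDK1 show the widest gaps, and the points of LDHB and MPC2 overlap between the groups.

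LDHA (ENSG00000134333, chromosome 11, 18394388 to 18408425, GRCh38), the gene of the subunit that favours lactate, had 15492, 15791 and 15665 normalized reads (reads divided by the size factor of the library) in the RBP4 libraries and 43477, 43699.5 and 43477 in the control libraries. The 3 libraries of each group lay close together and the groups were far apart. The fall was 2.78-fold, with a log2 fold change of -1.48 (SE 0.020, limma adjusted p = 6.3e-62). LDHA took 0.101% ± 0.000826 of all reads in RBP4 and 0.268% ± 0.000927 in control libraries (SD, n = 3 each), and by mean normalized reads it ranked 61 in RBP4 and 14 in control libraries among all genes of the table. Of all genes tested, 58 had a lower log2 fold change.

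LDHB (ENSG00000111716, chromosome 12, 21635342 to 21757857), the gene of the B subunit, had 765, 651 and 721 normalized reads in the RBP4 libraries and 827, 686 and 832 in the control libraries. The groups overlapped, with the second control library below RBP4 libraries 1 and 3. Its exons share 997 bases with AC010197.2 on the same strand, which was not analysed here. Its log2 fold change of -0.13 did not pass (95% interval -0.27 to 0.0027, limma adjusted p = 0.0962). It did pass without RBP4 library 1 (-0.18, adjusted p = 0.0275) and without control library 2 (-0.22, adjusted p = 0.00344), with adjusted p-values between 0.00344 and 0.449 across the alternatives.

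The ratio of LDHA to LDHB within a library tests whether both subunit genes moved alike. The log2 ratio of normalized reads was 4.34, 4.60 and 4.44 in the RBP4 libraries and 5.71, 5.99 and 5.71 in the control libraries, with no overlap. The difference of -1.34 corresponds to a ratio 2.54-fold lower with RBP4 (two-sided exact permutation p = 0.1, the smallest that 3 against 3 libraries allow, adjusted p = 0.125 over the 5 ratios tested). Per kilobase of merged exons, LDHA made up 91.3% ± 0.713 of the sum of both genes in RBP4 and 96.4% ± 0.378 in control libraries, and 93.3% ± 0.562 and 97.3% ± 0.290 per kilobase of the principal transcript (SD, n = 3 each). LDHA was thus the main lactate dehydrogenase transcript in both groups.

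Reads of near-identical copies may move with those of LDHA. LDHAP4, a processed pseudogene of LDHA on chromosome 9, had 5.80, 8.50 and 9.54 normalized reads in RBP4 and 36.2, 45.3 and 31.1 in control libraries. It was far below its parent gene in every library and passed the filter on low values only through the control libraries, so no test of it is given. Whether its reads came from LDHA transcripts was not tested.

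**Figure D3:**
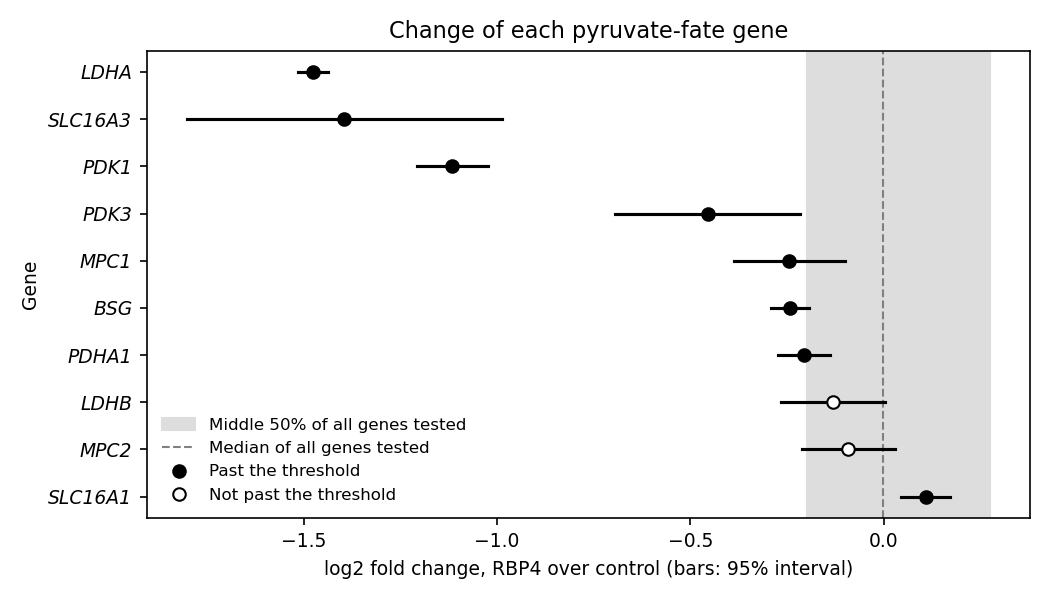
log2 fold change (x axis, RBP4 over control) of each gene with its 95% interval, from the most lowered at the top to the 1 raised at the bottom; filled points passed the adjusted threshold. The shaded band spans the middle 50% of all genes tested (-0.20 to 0.27), and LDHA, SLC16A3 and PDK1 lie furthest to its left.

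The transporters of lactate moved in opposite directions. SLC16A1 (ENSG00000155380, chromosome 1, 112911847 to 112957013), which encodes MCT1, had 4171, 4202 and 4282 normalized reads in RBP4 and 3707, 3950.3 and 4084 in control libraries. The lowest RBP4 value stood above the highest control value, but by little. The rise was 1.08-fold (log2 fold change 0.11, SE 0.032, limma adjusted p = 0.00309), and it no longer passed without control library 1, the lowest of its group (0.071, adjusted p = 0.0687), with adjusted p-values between 3.4e-06 and 0.0687 across the alternatives. Its exons share 175 bases with SLC16A1-AS1 on the other strand, which the library kit does not separate. SLC16A1-AS1 averaged 348 ± 16.3 normalized reads in RBP4 and 241 ± 14.4 in control libraries (log2 fold change 0.53, limma adjusted p = 3.5e-07).

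SLC16A3 (ENSG00000141526, chromosome 17, 82228397 to 82261129) encodes MCT4, the exporter typical of strongly glycolytic cells. It had 34.8, 23.6 and 34.3 normalized reads in RBP4 and 99.4, 68.4 and 80.3 in control libraries, a low level in both groups with no overlap between them. The fall was 2.67-fold (log2 fold change -1.40, SE 0.20, limma adjusted p = 2.8e-08). Its exons share 482 bases with CSNK1D, a kinase gene on the other strand with 2195 ± 38.3 normalized reads in RBP4 and 2518 ± 95.0 in control libraries, so a part of the few SLC16A3 reads cannot be assigned with certainty. CSNK1D fell by 0.20 on the log2 scale (limma adjusted p = 4.4e-06), less than SLC16A3. The log2 ratio of SLC16A1 to SLC16A3 was 6.86, 7.42 and 6.92 in RBP4 and 5.21, 5.83 and 5.65 in control libraries, a difference of 1.504 (two-sided exact permutation p = 0.1, adjusted p = 0.125 over the 5 ratios).

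BSG (ENSG00000172270, chromosome 19, 571277 to 583493), the partner that carries both transporters to the membrane, had 9581, 9831 and 9503 normalized reads in RBP4 and 11672, 11325 and 11187 in control libraries. All RBP4 values lay below all control values. The fall was 1.18-fold (log2 fold change -0.24, SE 0.025, limma adjusted p = 2.9e-13). BSG shares 140 exon bases with AC009005.1 on the other strand, which averaged 18.1 ± 6.71 normalized reads in RBP4 and 23.7 ± 5.72 in control libraries. Of the other transporters and sensors of lactate and pyruvate, SLC16A7, SLC16A8, EMB and SLC5A12 had rows below the filter, with SLC16A7, the gene of MCT2, highest at 5.73 ± 5.03 normalized reads in RBP4 and 11.1 ± 4.48 in control libraries.

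At mitochondrial entry the changes were small. MPC1 (ENSG00000060762, chromosome 6, 166364919 to 166383013) had 369, 365 and 399.7 normalized reads in RBP4 and 450.2, 435 and 458 in control libraries, without overlap. It fell 1.18-fold (log2 fold change -0.24, SE 0.072, limma adjusted p = 0.00348). MPC2 (ENSG00000143158, chromosome 1, 167916729 to 167937040), whose protein pairs with that of MPC1 to form the carrier, had 631, 579.8 and 588 in RBP4 and 631, 619.8 and 664 in control libraries. The groups overlapped and the log2 fold change of -0.091 did not pass (95% interval -0.21 to 0.030, limma adjusted p = 0.210). Its exons share 575 bases with DCAF6 on the other strand, which rose (1654 ± 72.6 normalized reads in RBP4 and 1391 ± 57.9 in control libraries, limma adjusted p = 1.3e-06). The log2 ratio of MPC1 to MPC2 was -0.77, -0.66 and -0.55 in RBP4 and -0.49, -0.51 and -0.53 in control libraries, a difference of -0.15 (-0.099 without RBP4 library 1) with little room between the groups (two-sided exact permutation p = 0.1, adjusted p = 0.125).

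PDHA1 (ENSG00000131828, chromosome X, 19343893 to 19361705), the E1 alpha subunit that the kinases phosphorylate, had 2683, 2757 and 2721 normalized reads in RBP4 and 3088, 3257 and 3076 in control libraries. All RBP4 values lay below all control values, a fall of 1.15-fold (log2 fold change -0.21, SE 0.034, limma adjusted p = 3.8e-07). PDHA1 shares 956 exon bases with MAP3K15 on the other strand, which was low in both groups (33.1 ± 2.97 normalized reads in RBP4 and 18.2 ± 6.59 in control libraries).

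PDK1 (ENSG00000152256, chromosome 2, 172555373 to 172608669), the pyruvate dehydrogenase kinase that hypoxia induces, had 797, 872 and 840.3 normalized reads in RBP4 and 1759, 1844 and 1834 in control libraries. The highest RBP4 value was below the lowest control value by a wide gap. The fall was 2.17-fold (log2 fold change -1.12, SE 0.046, limma adjusted p = 2.3e-32). PDK1 shares 445 exon bases with AC078883.1 on the other strand, which averaged 2.86 ± 0.941 normalized reads in RBP4 and 12.4 ± 4.99 in control libraries. PDK3 (ENSG00000067992, chromosome X, 24465221 to 24541862), another kinase of the family, had 158, 122 and 119 in RBP4 and 195, 179 and 170.3 in control libraries. It fell 1.36-fold (log2 fold change -0.46, SE 0.12, limma adjusted p = 0.00107), with the first RBP4 library nearest the control values.

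The kinases were also set against PDHA1, their substrate, within each library. The log2 ratio of PDK1 to PDHA1 was -1.75, -1.66 and -1.69 in RBP4 and -0.81, -0.82 and -0.75 in control libraries, a difference of -0.91 and a 1.88-fold lower ratio (two-sided exact permutation p = 0.1, the smallest possible, adjusted p = 0.125). The log2 ratio of PDK3 to PDHA1 was -4.08, -4.49 and -4.50 in RBP4 and -3.98, -4.18 and -4.17 in control libraries, where the groups overlapped (difference -0.25, or -0.39 without RBP4 library 1, exact permutation p = 0.3, adjusted p = 0.3).

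**Figure D4:**
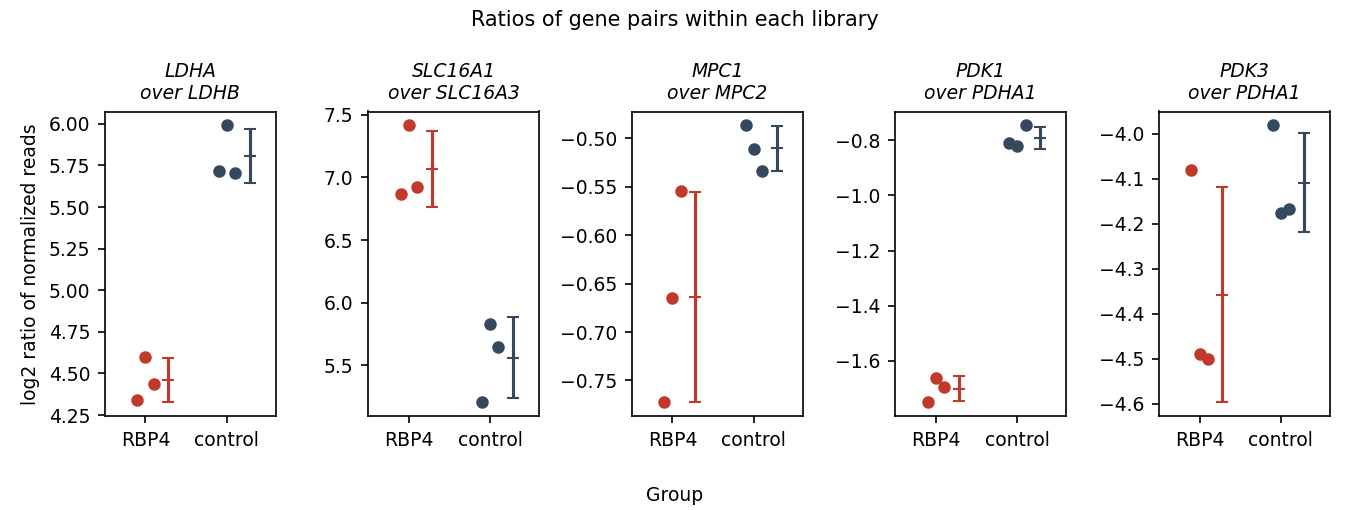
log2 ratio of normalized reads of 2 genes within each library (y axis, a scale of its own per panel) in RBP4 (red, left) and control (dark, right) libraries; points are libraries, with the mean and SD beside them. The ratios of LDHA to LDHB and of PDK1 to PDHA1 are lower and that of SLC16A1 to SLC16A3 is higher in every RBP4 library than in any control library, while those of PDK3 to PDHA1 overlap.

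Levels of different genes were compared as normalized reads per kilobase of merged exons. In the RBP4 libraries BSG (2538 ± 45.2) and LDHA (2520.0 ± 24.2) stood highest and did not separate beyond their spread, followed by SLC16A1 (794 ± 10.8), PDHA1 (606 ± 8.22), MPC1 (245 ± 12.1), LDHB (239 ± 19.3) and MPC2 (235 ± 10.9), of which neither MPC1 and LDHB nor LDHB and MPC2 separated. PDK1 (56.2 ± 2.50), PDK3 (26.8 ± 4.33) and SLC16A3 (3.44 ± 0.704) were lowest (SD, n = 3). In the control libraries LDHA came first by far (7013 ± 20.7), ahead of BSG (3001 ± 65.9), SLC16A1 (737 ± 36.0) and PDHA1 (699 ± 22.5), where SLC16A1 and PDHA1 did not separate. MPC1 (289.6 ± 7.77), LDHB (262 ± 27.7), MPC2 (250.1 ± 8.96), PDK1 (122 ± 3.12), PDK3 (36.6 ± 2.49) and SLC16A3 (9.19 ± 1.73) followed, with LDHB and MPC2 not separated. The order depends on the length used. Per kilobase of the principal transcript, LDHA (6477 ± 62.2) stood above BSG (4875 ± 86.8) in the RBP4 libraries too, and PDK3 (69.2 ± 11.2) above PDK1 (58.9 ± 2.62).

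Other genes of the same steps were described from lists chosen by function, also with earlier results of these data known. Of 36 such genes, 30 had rows and 23 were tested, of which 7 were raised, 9 were lowered and 7 missed the threshold, where 24.5% of all genes tested were raised and 26.1% lowered. Their median log2 fold change was -0.035, against -0.0021 over all genes tested. Of the 4 other lactate dehydrogenase genes, only LDHD was tested. LDHD, the mitochondrial enzyme that oxidizes D-lactate, had 92.8, 69.9 and 58.2 normalized reads in RBP4 and 27.9, 43.3 and 23.6 in control libraries, with no overlap, and rose 2.33-fold (log2 fold change 1.21, SE 0.22, limma adjusted p = 3.1e-06).

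Within the pyruvate dehydrogenase complex, 2 of the 4 other tested subunits fell and 2 missed the threshold, where 26.1% of all genes tested fell. DLAT, the E2 acetyltransferase core, averaged 2581 ± 43.8 normalized reads in RBP4 and 3078 ± 50.9 in control libraries (log2 fold change -0.25, limma adjusted p = 1.9e-09). PDHX, which docks the E3 enzyme, averaged 765 ± 48.1 and 909 ± 11.0 in the same order (-0.25). PDHB, the E1 beta subunit, stood at 552 ± 0.918 in RBP4 and 602 ± 36.1 in control libraries (limma adjusted p = 0.0978, and 0.0360 without control library 3), and DLD, the E3 subunit shared with other complexes, at 4428 ± 102 and 4303 ± 70.0 (limma adjusted p = 0.257), which passed as higher with libraries scaled to total reads (log2 fold change 0.11, adjusted p = 0.00168).

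The other kinases and phosphatases of the complex were mixed. Among the 5 tested there were 3 that rose, 1 that fell and 1 short of the threshold, where 24.5% of all genes tested rose and 26.1% fell. PDP1, a phosphatase that switches the complex back on, had 119.9, 109.5 and 129 normalized reads in RBP4 and 58.0, 73.5 and 78.2 in control libraries, a 1.71-fold rise without overlap (log2 fold change 0.77, SE 0.15, limma adjusted p = 1.7e-05). PDPR, the regulatory subunit of that phosphatase, rose by 0.14 on the log2 scale (limma adjusted p = 0.00877, and 0.0831 without RBP4 library 2). PDP2, the second phosphatase, fell by 0.13 on that scale (limma adjusted p = 0.0261). The PDP2 call was lost with libraries scaled to total reads (adjusted p = 0.328), without RBP4 library 1 (0.114) and without control library 2 (0.138). It was also lost with DESeq2 (0.0907) and with no filter on low values (0.0525). PDK4, the kinase that fasting induces, averaged 633 ± 47.4 in RBP4 and 572 ± 5.13 in control libraries, just past the threshold (0.14, limma adjusted p = 0.0491), and it no longer passed without RBP4 library 1 (0.081, adjusted p = 0.360) or without any 1 control library (adjusted p between 0.0679 and 0.106), nor with DESeq2 (0.107), no filter on low values (0.0904) or the replicate block (0.0552). PDK2 had 67.7, 82.1 and 63.0 in RBP4 and 59.0, 46.3 and 57.8 in control libraries (limma adjusted p = 0.0773, and 0.0365 with libraries scaled to total reads).

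Other enzymes that use or make pyruvate were also mixed. Among the 5 tested there were 2 that rose, 1 that fell and 2 short of the threshold, where 50.6% of all genes tested passed. GPT2, the mitochondrial transaminase that interconverts pyruvate and alanine, had 1339.7, 1299 and 1255 normalized reads in RBP4 and 1064, 898.5 and 994 in control libraries, a 1.32-fold rise (log2 fold change 0.40, limma adjusted p = 6.4e-10). PC, which carboxylates pyruvate to oxaloacetate, had 822, 784 and 724 in RBP4 and 644, 589 and 646 in control libraries, a 1.24-fold rise (0.31, limma adjusted p = 8.7e-06). ME2, a mitochondrial malic enzyme that makes pyruvate from malate, averaged 1393 ± 52.9 in RBP4 and 1529 ± 54.4 in control libraries (-0.13, limma adjusted p = 0.00740), and it did not pass with libraries scaled to total reads (adjusted p = 0.207), without RBP4 library 1 (0.0708) or without control library 3 (0.0524).

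When lactate dehydrogenase does not, shuttles carry the reducing power of cytosolic NADH into mitochondria. Of their 8 tested genes, 5 fell, 1 rose and 2 missed the threshold, where 26.1% of all genes tested fell and 24.5% rose. GPD2, the mitochondrial enzyme of the glycerol phosphate shuttle, had 856, 854 and 981 normalized reads in RBP4 and 1078, 1189 and 1175 in control libraries, a 1.28-fold fall (log2 fold change -0.36, limma adjusted p = 4.5e-08). GPD1, the cytosolic enzyme of that shuttle, was below the filter (4.45 ± 1.05 normalized reads in RBP4 and 5.53 ± 1.22 in control libraries). GOT1, the cytosolic aspartate transaminase of the malate-aspartate shuttle, had 2641, 2808 and 2737 in RBP4 and 1877, 1778 and 1749 in control libraries, a 1.51-fold rise (0.60, limma adjusted p = 1.2e-22), whereas its mitochondrial counterpart GOT2 averaged 3367 ± 96.8 in RBP4 and 3858 ± 71.0 in control libraries (-0.20, limma adjusted p = 3.1e-07). MDH1, MDH2 and SLC25A13, an enzyme pair and a carrier of the same shuttle, fell by 0.18, 0.24 and 0.21 on the log2 scale.

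**Figure D5:**
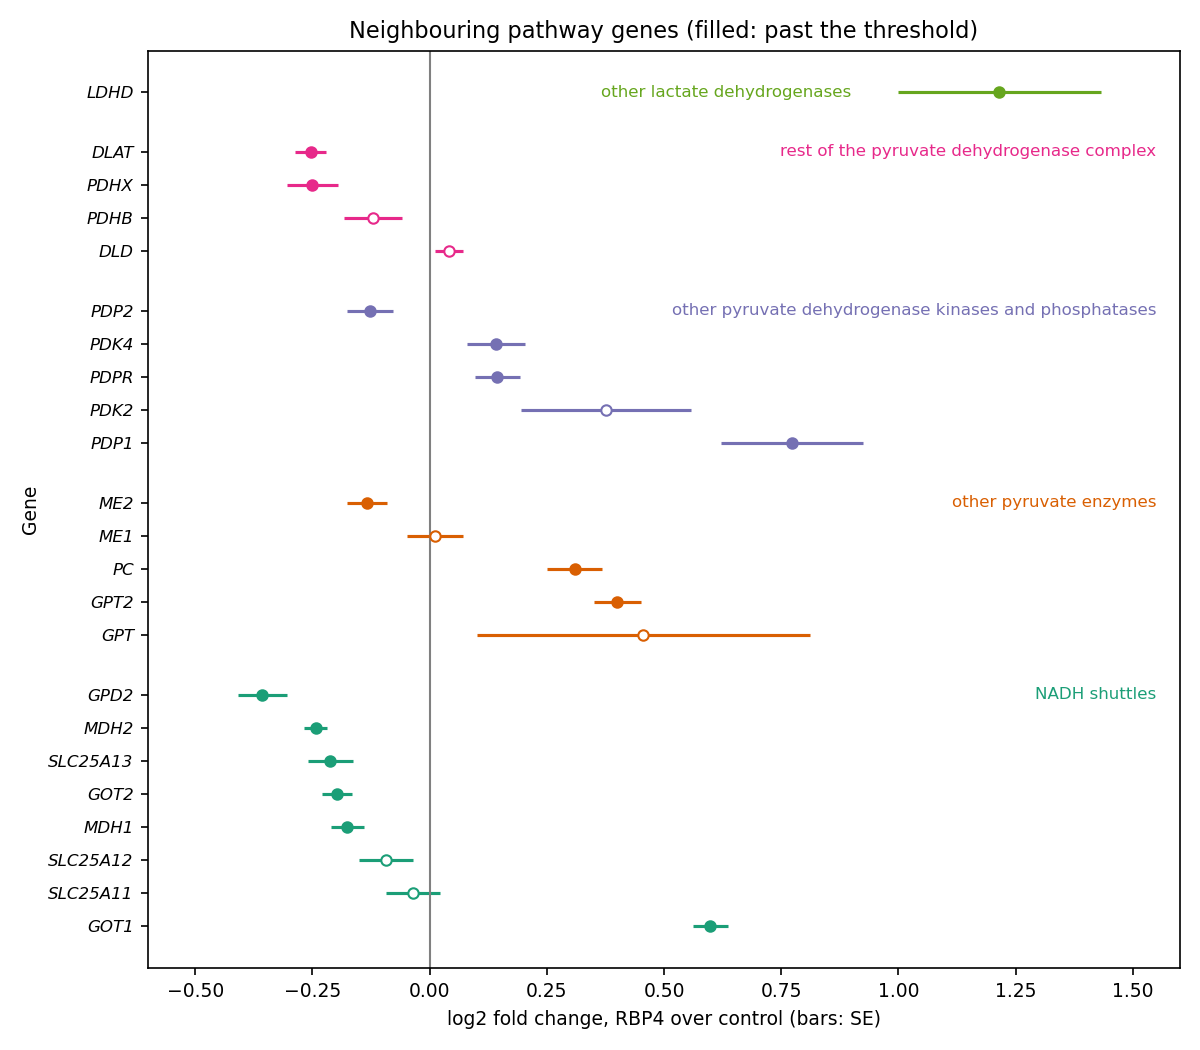
log2 fold change (x axis, RBP4 over control) with its SE for the 23 tested genes of the neighbouring lists, coloured by list; filled points passed the adjusted threshold. LDHD, PDP1 and GOT1 stand furthest to the right among the genes that passed, and GPD2 furthest to the left.

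The genes whose values over the 6 libraries were most like those of LDHA were BUB1, a kinase of the mitotic checkpoint, BHLHE40, a transcriptional repressor, HIST1H2AC, a histone gene, and PGK1 and TPI1, enzymes of glycolysis. Their Pearson correlations with LDHA on the log2 scale lay between 0.9996 and 0.9999, but 391 of the 12229 protein-coding genes compared exceeded 0.99, and the 6 points, shared by all genes, fall into 2 groups. BUB1 averaged 3492 normalized reads in RBP4 and 9100 in control libraries, and PGK1 averaged 7835 in RBP4 and 19443 in control libraries. Among the 10 genes, PDK1 had the highest correlation with LDHA (0.998), and SLC16A1 a negative one (-0.79). In the authors' deposited table, 8 of the 10 genes were past an adjusted p of 0.05, all in the same direction as here, where 20.6% of all genes of that table were. That share is over all 28847 genes, of which only 15676, with all 10 members among them, passed the filter on low values here. It is therefore not on the same base as the shares given above.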

How the data were processed

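RNA-seq of 6 libraries labelled THP-1, 3 with RBP4 and 3 control, was analysed, grouped and numbered by title. Poly-T selected RNA was made into libraries with a NEBNext Ultra kit, which does not mark strand, per the labels' protocols. Which aligner and counter were used is not given in the sources used here. Per the file headers, 1 table deposited by the authors holds a normalized signal for each gene in each library, group means, and the p-values, adjusted p-values and log2 fold changes of their own test. The deposited signal is the read count of a gene over a size factor: 100% of values were whole multiples of the step of their library within 0.01 reads. Start, end and strand matched GENCODE release 29 (GRCh38) for 28841 of 28847 genes. Unused columns of values per sample numbered 0.

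Genes with at least 10 normalized reads in at least 3 libraries were kept. Then log2(value + 1) was fitted with limma 3.58.1 (R 4.3.3), with trended and robust variances, two-sided, with Benjamini-Hochberg adjustment and a threshold of 0.05. Fold changes of low genes are understated on this scale. The fit was tested on simulated data for 15312 genes. Few genes were set to differ there, whereas calls in these libraries were widespread, so it does not vouch for these calls. Ratios within libraries were compared with exact permutation tests. edgeR 4.0.16 (TMM) and DESeq2 1.42.0 on recovered reads, other pseudocounts, filters and scaling, a replicate block and leaving out each library were the alternatives. Named were all 10 genes, the list genes past the threshold (or highest where none passed) and the 5 genes most like LDHA. Genes sharing exon bases with a member were named too, apart from MIR6787 at SLC16A3. Of the pseudogenes found by symbol only LDHAP4 was named. PDHB, DLD, PDK2 and GPD1 were added after their values were seen, and SLC25A11 for its reversed sign. Members and lists were chosen with earlier results of these data known. A further list is not reported here. Intervals are 95%.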

Additional observations from a re-analysis of the deposited data

How the results depend on the processing

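All 10 genes kept their direction under all 14 alternatives, and of their 140 values 136 kept their side of the threshold. The exceptions were the LDHB and SLC16A1 values given above and LDHB under the replicate block (-0.13, adjusted p = 0.0477). The count of raised members ranged from 0 to 1 and that of lowered members from 7 to 8 when 1 library was left out, and the count of all genes called from 6917 to 7451. edgeR on recovered reads called 7820 genes and DESeq2 6510, against 7934 in limma. Under the replicate block 8 members were lowered and 7829 genes called. Same-numbered libraries did not deviate together (correlations 0.0037, -0.0079 and -0.017), so no pairing by number was seen. A weak pairing would not show in these correlations. Scaling to total reads moved the median log2 fold change by 0.068. It left LDHA at -1.41, PDK1 at -1.05, BSG at -0.17 and PDHA1 at -0.14. The LDHA to LDHB difference ranged from -1.415 to -1.251 over its 9 alternatives. Among the other 33 genes followed, 434 of 456 values kept direction and side. This count takes in list genes not described above. It also holds 10 values of LDHAP4, all of which kept theirs, although that gene passed the filter only through the control libraries. The sign reversed for SLC25A11, which had not passed, with total reads (0.033) and with 1 library left out (-0.0699 to 0.0101). The calls of PDK4, PDP2, PDPR, ME2 and MAP3K15 were lost under at least 1 alternative, that of MAP3K15 without control library 3 (adjusted p = 0.0902), while DLD, PDHB and PDK2 gained one. The cause was not tested. For SLC16A3, 23.6 to 99.4 normalized reads limit precision.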
